A study of Mus musculus with 18 samples.

Results

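Carboxylesterases are a family of serine hydrolases, and the mRNA levels of 9 of them (Ces1c, Ces1d, Ces1e, Ces1f, Ces1g, Ces2b, Ces2c, Ces2e and Ces2g) were followed in the mouse kidney. The 9 genes were picked by name out of 32675 genes, all 9 had a row in the expression table, and all 9 passed the filter on low counts. They were chosen by their measured values in the comparisons described here, so the levels and fold changes of the 9 genes, and the counts of them called in the fit over all genes, are given as a description only. The question was how the kidney transcriptome differs after chronic social defeat stress (CSDS) and after treatment of the defeated mice with the antidepressant fluoxetine, a serotonin reuptake inhibitor. Bulk poly(A) RNA sequencing was done on the right kidney of 18 wild type male C57BL/6 mice aged 6 weeks at the start, with 6 mice in each group. The Ctrl group was handled and housed alike but never defeated. Mice of the PBS group were defeated by aggressive CD-1 residents during daily encounters of 10 min over 14 days and received phosphate-buffered saline intraperitoneally once a day. The FLX group was defeated in the same way and received fluoxetine, 10 mg per kg, by the same route. No injection of Ctrl mice is stated, so defeat and injection cannot be told apart in a comparison with the Ctrl group.

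Carboxylesterases sit mostly in the lumen of the endoplasmic reticulum and cleave esters, amides and thioesters with a catalytic serine. They activate or inactivate ester drugs, and several of them also hydrolyse stored lipids. Enzymes of the CES1 type favour substrates with a large acyl group and a small alcohol, and those of the CES2 type the reverse. In the mouse both groups were multiplied by tandem duplication, and liver, gut and the proximal tubule of the kidney are rich in these enzymes.

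PBS replicate 6 stood apart from the other mice. The study left out 1 PBS mouse for high inflammatory factors without naming it, and PBS replicate 6 held the highest level of the PBS group in 4 of the 5 factors that the study lists, with 22.1 FPKM (fragments per kilobase of transcript, scaled to library size) of S100a8 against 7.65 in the next PBS mouse. The summed FPKM of 8 proximal tubule markers, all of them at 1 FPKM or more, was 1370 to 1769 in the 6 Ctrl mice, 1341 to 1607 in PBS replicates 1 to 5 and 1424 to 1648 in the 6 FLX mice, but 779 in PBS replicate 6. This mouse was left out of the main comparisons, and its values are given beside them. Total estimated counts were 73000203 to 78650116 in the Ctrl group, 72373418 to 78711121 in the 5 PBS mice and 48928823 to 79061296 in the FLX group, where replicates 3 to 6 lay below all other mice, so weakly expressed genes were measured less precisely in these 4.

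The 9 genes lie on mouse chromosome 8 (GRCm38) in a pair of gene rows. The Ces1 row holds 8 genes on the minus strand over 359.5 kb (chr8:93020214-93379725), of which 5 are among the 9. The Ces2 row holds 8 genes on the plus strand over 287.2 kb (chr8:104734003-105021178), of which 4 are among the 9. Neighbours in a row differed in level by orders of magnitude, so that position alone did not order the levels. In the Ctrl kidney, Ces1f ranked 181st among 32675 genes at 239 ± 37.4 FPKM (mean ± SD, n = 6), Ces1d 336th at 143 ± 25.7 FPKM and Ces2c 406th at 121 ± 18.6 FPKM. Every Ctrl level of Ces1f lay above every Ctrl level of Ces1d, whereas the Ctrl levels of Ces1d and Ces2c overlapped. Among the 9 members Ces1e came next at 40.1 ± 2.94 FPKM, clear of the members before and after it. The pseudogene Ces2d-ps, not among the 9, had a mean of 44.0 FPKM and overlapped Ces1e. Ces1g (5.87 ± 2.16 FPKM), Ces2e (5.29 ± 0.739 FPKM) and Ces2b (3.45 ± 0.956 FPKM) overlapped one another. Ces2g stood at 1.10 ± 0.0953 FPKM, and Ces1c at 0.0481 ± 0.0340 FPKM was barely detected.

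**Figure D1:**
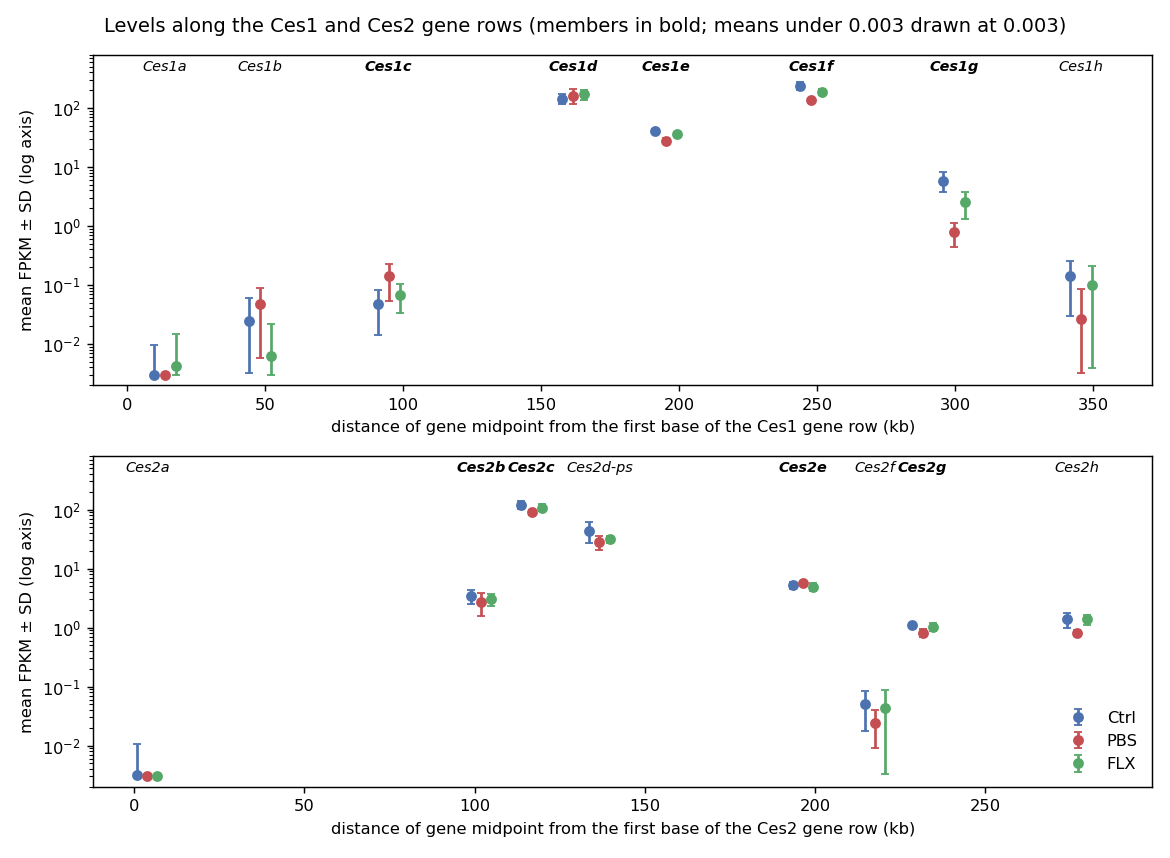
Mean level (FPKM, log axis, ± SD) of every gene of the Ces1 row (top) and the Ces2 row (bottom) in the Ctrl (n = 6), PBS (n = 5) and FLX (n = 6) groups, against the distance of the gene's midpoint from the first base of its row in kb, with groups set slightly apart sideways and error bars that would pass 0 cut short. Ces1d, Ces1e, Ces1f, Ces2c and the pseudogene Ces2d-ps have means of 27.6 FPKM or more in every group, while the highest mean of Ces1a, Ces1b, Ces1c and Ces1h is 0.140 FPKM.

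Ces1f (ENSMUSG00000031725, chr8:93256236-93279747), an enzyme of the endoplasmic reticulum known for lipid hydrolysis in liver, had the largest difference between groups among the abundant members. Its lowest, median and highest levels in the Ctrl group were 169.5, 248 and 271 FPKM. Levels in PBS replicates 1 to 5 were 127, 147, 142, 134 and 142 FPKM, and PBS replicate 6 had 32.5 FPKM. In the FLX group the lowest, median and highest levels were 159, 189 and 221 FPKM. All PBS mice lay below all Ctrl mice and below all FLX mice, and only 2 of the 6 FLX mice lay below every Ctrl mouse. The log2 fold change, fitted to the estimated counts of all 3 groups with edgeR and given with its standard error (SE), was -0.79 (SE 0.13) for PBS versus Ctrl, 0.36 (SE 0.12) for FLX versus PBS and -0.43 (SE 0.12) for FLX versus Ctrl. With PBS replicate 6 in the fit the first of these was -0.99 (SE 0.25) and the second 0.55 (SE 0.25). Here as for all genes in bulk kidney, fewer cells that express a gene and less of its RNA per cell cannot be told apart.

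Ces1g (ENSMUSG00000057074, chr8:93302369-93337308), also called Es-x and known for its part in liver lipid storage, had the largest fold change of the 9 members. Ctrl mice had 2.36 FPKM at the lowest, 6.68 at the median and 7.77 at the highest. PBS replicates 1 to 5 had 0.312, 0.888, 0.638, 0.869 and 1.25 FPKM, whereas PBS replicate 6 had 2.93 FPKM, within the Ctrl range. FLX mice had 1.31 FPKM at the lowest, 2.13 at the median and 4.73 at the highest. The 5 PBS mice lay below every Ctrl and every FLX mouse, and 4 of 6 FLX mice lay below every Ctrl mouse. These 4 were FLX replicates 3 to 6, the same mice whose total counts lay below all others. FLX replicates 1 and 2, at 4.73 and 2.83 FPKM, lay within the Ctrl range. The part of library size in this split was not tested. On the log2 scale PBS versus Ctrl was -2.88 (SE 0.39), FLX versus PBS 1.58 (SE 0.37) and FLX versus Ctrl -1.30 (SE 0.34). Including PBS replicate 6 brought the first to -2.37 (SE 0.44) and the second to 1.07 (SE 0.42).

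Ces1e (ENSMUSG00000061959, chr8:93201218-93229619) encodes egasyn, the esterase that holds beta-glucuronidase in the endoplasmic reticulum. Its level was 37.05 to 44.2 FPKM in the Ctrl group, with a median of 39.3. PBS replicates 1 to 5 had 32.0, 25.3, 25.7, 26.7 and 28.4 FPKM and PBS replicate 6 had 20.5 FPKM, all of them below every Ctrl mouse. FLX mice ran from 31.3 to 41.0 FPKM with a median of 35.9, so 4 of 6 lay below every Ctrl mouse and 4 of 6 above every PBS mouse. The log2 fold change was -0.53 (SE 0.10) for PBS versus Ctrl, 0.28 (SE 0.10) for FLX versus PBS and -0.26 (SE 0.10) for FLX versus Ctrl.

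Ces1d (ENSMUSG00000056973, chr8:93166068-93197838), the triacylglycerol hydrolase of liver and fat, overlapped between the groups in every comparison. The Ctrl group had 92.1 FPKM at the lowest, 153 at the median and 163 at the highest. In PBS replicates 1 to 5 it was at 154, 138, 154, 127 and 238 FPKM, and PBS replicate 6 had 90.7 FPKM. FLX mice had 124, 163 and 228 FPKM at the lowest, median and highest. No log2 fold change passed 0.17 in size: PBS versus Ctrl was 0.17 (SE 0.17), FLX versus PBS -0.02 (SE 0.17) and FLX versus Ctrl 0.15 (SE 0.17).

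Ces1c, the esterase that mouse liver secretes into plasma, was close to the limit of detection. It had 0 to 19 estimated counts in Ctrl mice, 3 to 45 in PBS mice and 6 to 19 in FLX mice, where the 1 count of 0 (Ctrl replicate 5) allows up to 3 counts by counting error alone. PBS replicates 1 to 5 had 0.138, 0.208, 0.0135, 0.108 and 0.227 FPKM, and 4 of the 5 lay above every Ctrl mouse, whose highest level was 0.0922 FPKM. The log2 fold changes had wide errors, with 1.497 (SE 0.72) for PBS versus Ctrl, -1.05 (SE 0.72) for FLX versus PBS and 0.44 (SE 0.70) for FLX versus Ctrl. On log2(FPKM + 1) the first of these was 0.12.

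**Figure D2:**
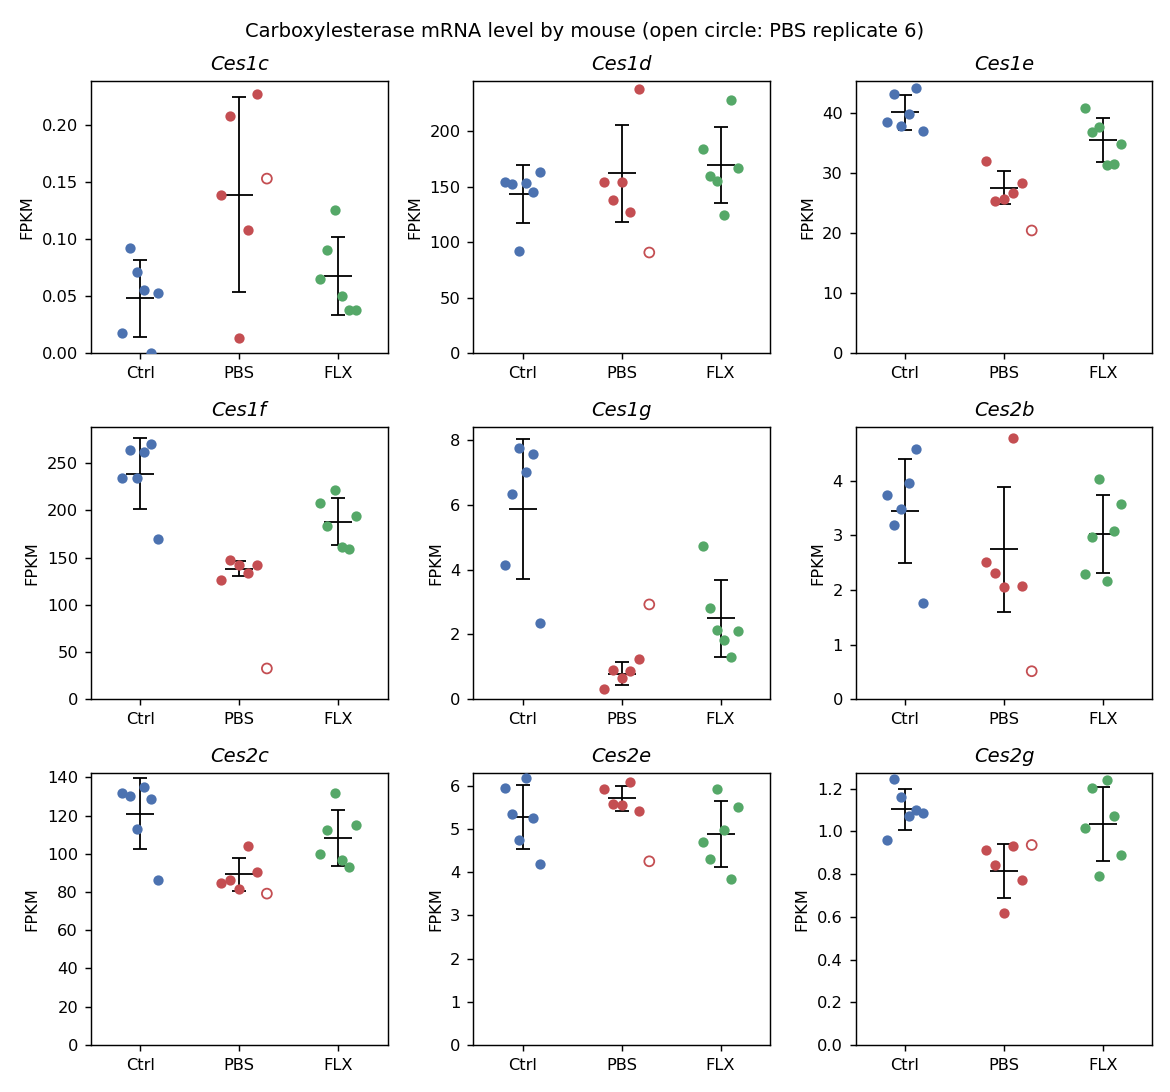
Level in FPKM of each of the 9 carboxylesterases in every mouse (1 point per mouse, Ctrl, PBS and FLX, each n = 6), with the mean and SD of 6 Ctrl, 5 PBS and 6 FLX mice; the open circle is PBS replicate 6. For Ces1f the highest PBS point is at 147 FPKM and the lowest Ctrl or FLX point at 159 FPKM.

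For PBS versus Ctrl, the log2 fold changes of the 4 Ces2 genes were smaller in size than those of Ces1e, Ces1f and Ces1g. Ces2c (ENSMUSG00000061825, chr8:104847068-104854483), a CES2-type esterase known as acylcarnitine hydrolase, had 86.4, 129.6 and 135 FPKM at the lowest, median and highest of the Ctrl group. The levels of PBS replicates 1 to 5 were 84.8, 86.1, 81.5, 104 and 90.25 FPKM, and PBS replicate 6 had 79.1 FPKM. FLX mice had 93.2, 106 and 132 FPKM at the lowest, median and highest. The groups overlapped: 3 of 5 PBS mice lay below every Ctrl mouse, and 3 of 6 FLX mice above every PBS mouse. The log2 fold change was -0.43 (SE 0.13) for PBS versus Ctrl, 0.19 (SE 0.13) for FLX versus PBS and -0.24 (SE 0.12) for FLX versus Ctrl.

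Ces2g was expressed at about 1 FPKM. Its Ctrl levels were 0.958 to 1.24 FPKM (median 1.09), and PBS replicates 1 to 5 had 0.911, 0.841, 0.619, 0.933 and 0.774 FPKM, with 0.937 FPKM in PBS replicate 6. All 6 PBS mice lay below every Ctrl mouse, by a margin of 0.937 against 0.958 FPKM at the closest. FLX mice ran from 0.789 to 1.24 FPKM and overlapped both groups. The log2 fold change was -0.42 (SE 0.15) for PBS versus Ctrl, 0.24 (SE 0.15) for FLX versus PBS and -0.18 (SE 0.14) for FLX versus Ctrl.

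Ces2b and Ces2e overlapped between all groups. Ces2b had 1.75 to 4.58 FPKM in Ctrl mice and 2.17 to 4.02 FPKM in FLX mice, while PBS replicate 4 had 4.78 FPKM against 2.05 to 2.504 FPKM in the other 4 PBS mice and 0.511 FPKM in PBS replicate 6. Ces2e, a CES2-type enzyme of gut and liver, had 4.20 to 6.19 FPKM in Ctrl mice, 5.41 to 6.09 FPKM in the 5 PBS mice, 4.26 FPKM in PBS replicate 6 and 3.85 to 5.92 FPKM in FLX mice. Ces2e was the only member beside Ces1c and Ces1d with a positive log2 fold change for PBS versus Ctrl, at 0.12 (SE 0.12). For FLX versus PBS it was -0.32 (SE 0.12), with 4 of 6 FLX mice below all 5 PBS mice.

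**Figure D3:**
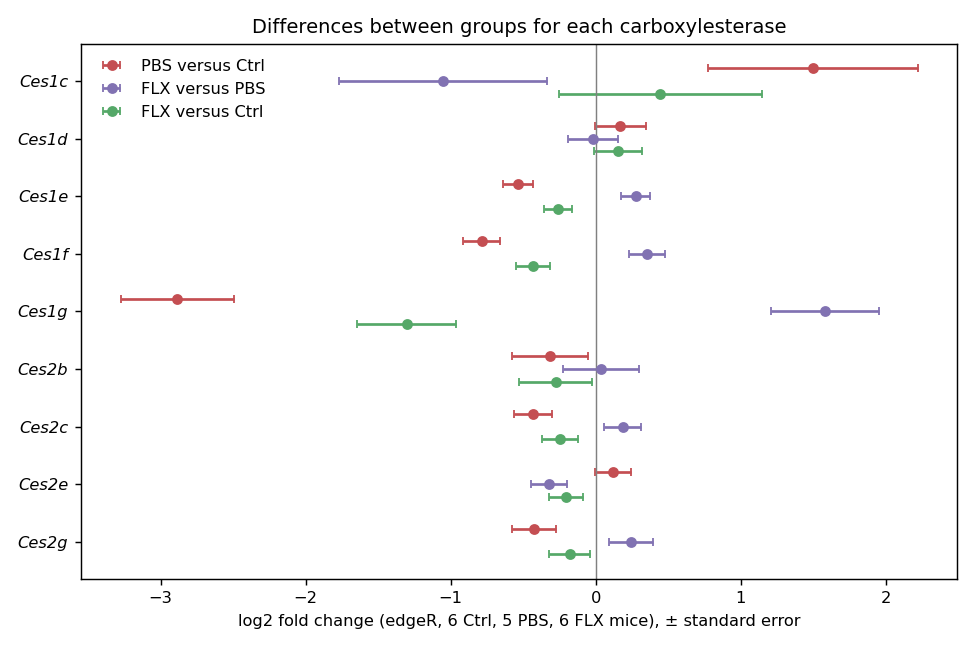
Log2 fold change (± SE) of the 9 carboxylesterases in the edgeR fit to 6 Ctrl, 5 PBS and 6 FLX mice, for PBS versus Ctrl, FLX versus PBS and FLX versus Ctrl. Ces1e, Ces1f, Ces1g, Ces2b, Ces2c and Ces2g lie below 0 for PBS versus Ctrl and above 0 for FLX versus PBS, where Ces2b is at 0.04; the 3 comparisons share mice.

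Counted over the members, the median log2 fold change was -0.42 for PBS versus Ctrl, 0.19 for FLX versus PBS and -0.24 for FLX versus Ctrl, beside medians of -0.0078, -0.0027 and -0.0092 over all 20251 genes tested. In the same fit, by edgeR's quasi-likelihood test with p values adjusted over all genes by the Benjamini-Hochberg method, 3 of the 9 (Ces1e, Ces1f and Ces1g) were called lower for PBS versus Ctrl at an adjusted p under 0.05, where 1.67% of all genes were called lower. With PBS replicate 6 included, 4 of the 9 were called, Ces2c being added, where 4.28% of all genes were called in either direction. None of the 9 was called for FLX versus PBS in either direction, where 0.726% of all genes were called. An unadjusted p under 0.05 was found for 4 of the 9 and for 2256 of all 20251 genes. Of these 4, Ces1e, Ces1f and Ces1g were higher in the FLX group and Ces2e was lower. DESeq2 called 1 member for FLX versus PBS, but in every comparison it called more of all genes than edgeR. Its counts over all genes are given in the section on processing choices. For FLX versus Ctrl 2 of the 9 (Ces1f and Ces1g) were called lower, where 1.59% of all genes were, and with all 6 PBS mice in the fit the count was 0, where 1.77% of all genes were called in either direction. Since the members were chosen with these comparisons in view, the counts describe them and are not compared with the background. The 3 comparisons share groups of mice and are not independent of one another.

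Without regard to any test, all 5 PBS mice lay below all 6 Ctrl mice for Ces1e, Ces1f, Ces1g and Ces2g, 4 of the 9 members, while 1.75% of all genes tested had this arrangement. With PBS replicate 6 the count was 3, since its Ces1g lay within the Ctrl range. All FLX mice lay above all 5 PBS mice for Ces1f and Ces1g, 2 of the 9, an arrangement that 2.45% of all genes had, and with PBS replicate 6 it held for Ces1f alone. The shares of 1.75% and 2.45% are for 5 PBS mice, and no share of all genes was counted with PBS replicate 6. For no member did all FLX mice lie below all Ctrl mice, which 0.731% of all genes did.

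By level, Ces1f, Ces1d and Ces2c led the family in every group, followed by Ces1e and the pseudogene Ces2d-ps at like levels. The 20 carboxylesterase genes in the table summed to 605 ± 76.9 FPKM in the Ctrl group (n = 6), 457 ± 45.0 FPKM in the PBS group (n = 5) and 545.5 ± 49.8 FPKM in the FLX group (n = 6), with 260.6 FPKM in PBS replicate 6. The 9 members made up 92.6% ± 2.06, 93.6% ± 1.77 and 94.0% ± 0.678 of these sums. Ces1f gave 39.5% ± 3.03 of the sum in the Ctrl group, 30.5% ± 2.95 in the PBS group and 34.4% ± 2.81 in the FLX group. The share of Ces1d was 23.9% ± 5.33 in the Ctrl group, 35.1% ± 5.89 in the PBS group and 31.0% ± 5.54 in the FLX group. That of Ces2c was 19.9% ± 1.43, 19.7% ± 2.39 and 19.9% ± 2.16, closer between groups than the spread within them. Ces1f exceeded Ces1d in 6 of 6 Ctrl mice, 2 of 5 PBS mice and 5 of 6 FLX mice. The ratio of Ces1f to Ces1d was 1.73 ± 0.488 in the Ctrl group, 0.893 ± 0.193 in the PBS group and 1.15 ± 0.246 in the FLX group, and 0.358 in PBS replicate 6.

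**Figure D4:**
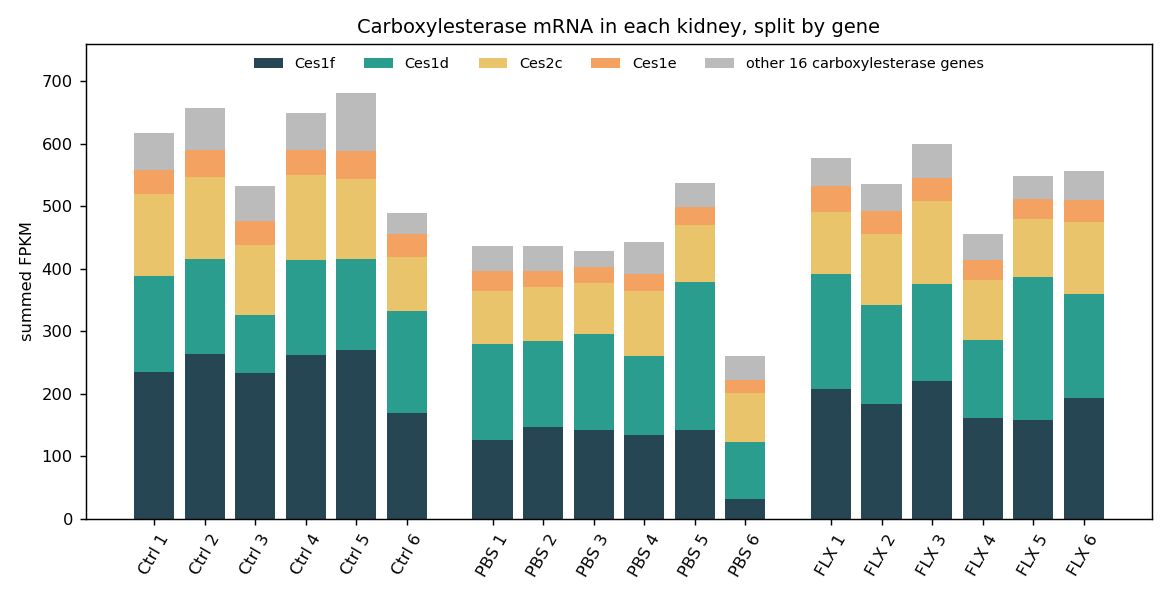
Summed FPKM of the 20 carboxylesterase genes in each of the 18 kidneys, split into Ces1f, Ces1d, Ces2c, Ces1e and the other 16 genes; the bars start at 0. The Ces1f part is 169.5 to 271 FPKM in Ctrl mice and 127 to 147 FPKM in PBS replicates 1 to 5, and PBS replicate 6 has the lowest bar at 260.6 FPKM.

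The members did not all vary together among the 17 mice of the fit. Likeness was measured as the mean absolute difference of z scores of log2(FPKM + 0.1) over the 17 mice, where 0 means an identical pattern. Ces1f and Ces1g were the closest pair at 0.299, followed by Ces1e and Ces1f at 0.359 and by Ces1f and Ces2c at 0.389. The farthest pair, Ces2e and Ces2g at 1.52, lie in the same gene row. Of 12109 genes outside the members with at least 1 FPKM, those most like Ces1f were Cyp4b1 (0.251), a cytochrome P450 of the proximal tubule, Selenbp2 (0.277) and Kap (0.284), the androgen-regulated protein of the kidney, where the median gene was at 1.15. Those most like Ces2c were Ldhd (0.372), the D-lactate dehydrogenase, Kap (0.378) and Nt5dc2 (0.394), with a median of 1.18. Cyp4b1 had 1041 ± 227 FPKM in the Ctrl group, 407 ± 64.4 FPKM in the PBS group and 856 ± 171 FPKM in the FLX group. These mice share their groups, so the likeness is a description.

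Markers of other tissues and of sex-biased tubule genes were read in the same mice. The summed FPKM of 7 male-biased proximal tubule genes, Kap and Cyp4b1 among them and all 7 at 1 FPKM or more, was 26440 to 38600 in the Ctrl group, 18340 to 21820 in the 5 PBS mice, 22940 to 36260 in the FLX group and 5086 in PBS replicate 6. Most of this sum was Kap, at 25570 to 37060 FPKM in the Ctrl group, 17870 to 21180 FPKM in the 5 PBS mice, 22020 to 34870 FPKM in the FLX group and 4720 FPKM in PBS replicate 6. All mice were male. The sum of 4 female-biased proximal tubule genes, all 4 at 1 FPKM or more, ran the other way, with 22.3 to 107 FPKM in Ctrl mice, 127 to 211 FPKM in the 5 PBS mice, 48.5 to 159 FPKM in FLX mice and 1361 FPKM in PBS replicate 6. Of the last sum 1357 FPKM was Cyp4a14, a fatty acid hydroxylase, whereas Slc7a12 at 0.708 FPKM and Prlr at 1.55 FPKM lay below the lowest of the other PBS mice, at 12.2 and 3.96 FPKM. Cyp4a14 was also most of the mean sum, with 51.3 of 55.9 FPKM in Ctrl and 73.7 of 86.5 FPKM in FLX mice. In the 5 PBS mice it was 145.5 of 175.8 FPKM. Slc7a12, Prlr and Slc22a29 also had positive log2 fold changes for PBS versus Ctrl, at 3.49, 1.60 and 1.79. For FLX versus PBS they were at -1.37, -1.28 and -1.25. Neutrophil genes, 5 of which were in the table and 2 at 1 FPKM or more, summed to 1.03 to 3.06 FPKM in Ctrl mice, 6.76 to 25.4 FPKM in the 5 PBS mice, 0.0833 to 4.79 FPKM in FLX mice and 64.2 FPKM in PBS replicate 6, and Mpo was not analysed here. S100a8, S100a9, Retnlg and Ngp had positive log2 fold changes for PBS versus Ctrl. Ly6g did not rise with them and was barely detected, with means of 0.0285 FPKM in Ctrl, 0.0187 in the 5 PBS and 0 in FLX mice. The sum of 3 tubule injury genes, 2 of them at 1 FPKM or more, was 1.02 to 2.71 FPKM in Ctrl mice, 1.66 to 6.19 FPKM in the 5 PBS mice, 1.545 to 11.3 FPKM in FLX mice and 63.45 FPKM in PBS replicate 6. The part of these differences in the carboxylesterase levels was not tested.

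Fat and liver also express carboxylesterases, so their markers were read beside Ces1d. The sum of 9 fat cell genes, of which 8 were at 1 FPKM or more, was 14.7 to 267 FPKM in the Ctrl group, 44.1 to 1591 FPKM in the 5 PBS mice and 47.3 to 1553 FPKM in the FLX group. PBS replicate 5 and FLX replicate 5 had the highest fat sums, 1591 and 1553 FPKM, and also the highest Ces1d, 238 and 228 FPKM. The part of fat in the Ces1d levels was not tested. Liver genes, of which 5 of 7 were at 1 FPKM or more, summed to 71.4 to 112 FPKM in Ctrl mice, 47.2 to 95.1 FPKM in the 5 PBS mice and 38.3 to 59.7 FPKM in FLX mice, but most of this was Ttr. Alb, the defining liver gene, was at 1.95 ± 0.204 FPKM in the Ctrl group, and Ahsg was listed at 0 in all 6 Ctrl mice. Of 5 adrenal cortex genes none reached 1 FPKM, and their sum was at most 2.56 FPKM in any mouse.

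**Figure D5:**
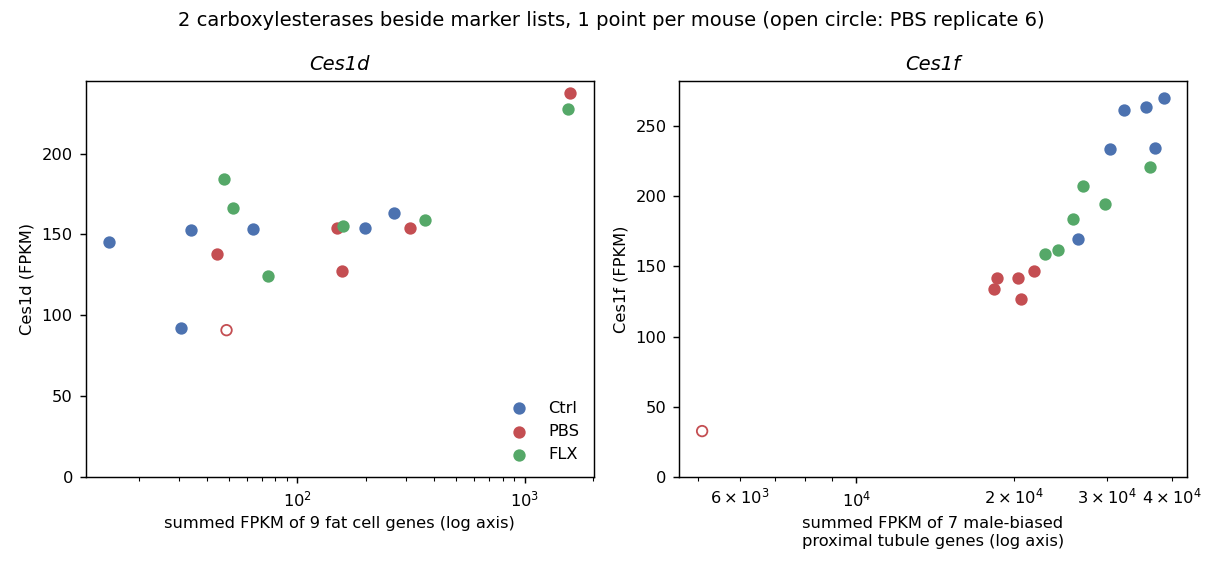
Left, Ces1d (FPKM) against the summed FPKM of 9 fat cell genes (log axis); right, Ces1f (FPKM) against the summed FPKM of 7 male-biased proximal tubule genes (log axis; most of the sum is Kap), 1 point per mouse, with PBS replicate 6 as an open circle. The 2 mice with fat sums of 1553 and 1591 FPKM have the highest Ces1d, and PBS replicate 6 has the lowest value on both axes of the right panel.

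The other 11 carboxylesterase genes of the table gave 5 that passed the filter on low counts. None of the 5 was called by edgeR's quasi-likelihood test in any comparison. For PBS versus Ctrl all 5 had a negative log2 fold change (median -0.83), 2 had an unadjusted p under 0.05, and DESeq2 called 1. Over all genes, too, DESeq2 called more than edgeR in this comparison. Of the 5, Ces1h, Ces2f and Ces3a were barely detected, with Ctrl means of 0.140, 0.0505 and 0.0966 FPKM, and the median is the value of Ces3a. For FLX versus PBS and for FLX versus Ctrl 1 of the 5 had an unadjusted p under 0.05, and DESeq2 called 0. Over all 20251 genes, an unadjusted p under 0.05 was found for 3634 (PBS versus Ctrl), 2256 (FLX versus PBS) and 4135 (FLX versus Ctrl). Ces2h had 1.38 ± 0.387 FPKM in the Ctrl group (n = 6), 0.805 ± 0.0968 in the PBS group (n = 5) and 1.37 ± 0.265 in the FLX group (n = 6). Its log2 fold change for PBS versus Ctrl was -0.77 (SE 0.21, edgeR adjusted p = 0.05003), and with PBS replicate 6, at 0.363 FPKM, it was -0.91 (SE 0.24, edgeR adjusted p = 0.0359). The pseudogene Ces2d-ps had 44.0 ± 16.8 FPKM in the Ctrl group, 28.2 ± 7.61 in the PBS group and 31.3 ± 4.12 in the FLX group, with a log2 fold change for PBS versus Ctrl of -0.63 (SE 0.24, edgeR adjusted p = 0.170). Ces2d-ps shared 61 stretches of 150 bases with Ces2c, 2.84% of those in Ces2c, so that reads could be split between these genes; no other member shared such a stretch with another carboxylesterase gene.

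Of 24 other enzymes that hydrolyse esters, lipids or epoxides, 23 were tested. For PBS versus Ctrl 1 of the 23 was called, where 3.81% of all genes were called in either direction. The 1 call is near that share, and the list was chosen with earlier results of these data known, so it is given as a description. An unadjusted p under 0.05 was found for 8 of the 23 and for 3634 of all 20251 genes. The 1 called was Gusb, which encodes beta-glucuronidase, the lysosomal enzyme that egasyn retains. Whether the levels of Gusb and Ces1e are linked in these kidneys was not tested. Gusb fell from 6.97 ± 0.456 FPKM in the Ctrl group (n = 6) to 5.63 ± 0.495 FPKM in the PBS group (n = 5), a log2 fold change of -0.31 (SE 0.07, edgeR adjusted p = 0.0244), and PBS replicate 6 had 6.45 FPKM. Leaving out Ctrl replicate 4, Ctrl replicate 5, PBS replicate 1 or PBS replicate 4 ended this call, at adjusted p values of up to 0.0846, as did the replicate block. In the FLX group Gusb was at 7.05 ± 0.557 FPKM, and FLX versus PBS was 0.24 (SE 0.07, edgeR adjusted p = 0.164). The 23 genes had a median log2 fold change of 0.05 for PBS versus Ctrl. None was called by edgeR for FLX versus PBS, with 2 at an unadjusted p under 0.05 and 0 called by DESeq2, or for FLX versus Ctrl, with 6 at an unadjusted p under 0.05 and 2 called by DESeq2. Over all genes, too, DESeq2 called more than edgeR in both comparisons. Over all 20251 genes, 2256 had an unadjusted p under 0.05 for FLX versus PBS and 4135 for FLX versus Ctrl.

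Among 12 transcription factors known to act on carboxylesterase or drug-metabolising genes, all 12 were tested and none was called for PBS versus Ctrl by edgeR, with 3 at an unadjusted p under 0.05 and 2 called by DESeq2. DESeq2 also called more of all genes than edgeR here. Of all 20251 genes, 3634 had an unadjusted p under 0.05 in this comparison. Dbp, a clock-controlled factor of the PAR bZIP family, was the 1 called in the other comparisons. Of all genes, 0.726% were called in either direction for FLX versus PBS and 3.67% for FLX versus Ctrl. Dbp stood at 15.9 ± 5.07 FPKM in the Ctrl group (n = 6) and at 1.14 ± 0.355 FPKM in the FLX group (n = 6). PBS replicates 1 to 5 had 4.16, 7.60, 3.23, 23.0 and 7.90 FPKM, a spread wider than in the other groups, and PBS replicate 6 had 3.89 FPKM. Dbp fell by 3.12 on the log2 scale for FLX versus PBS (SE 0.43, edgeR adjusted p = 0.00218) and by 3.88 for FLX versus Ctrl (SE 0.43, edgeR adjusted p = 0.000147). No source used here gives the hour at which each kidney was taken, and its part in these levels was not tested.

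RefSeq promoter windows of 300 bases (250 before the start site and 50 after it, GRCm38.p6) were read for 6 of the 9 members: Ces1c, Ces1e, Ces1g, Ces2c, Ces2e and Ces2g. Each was searched on both strands for the D-box TTATGTAA, the element that PAR bZIP factors such as Dbp bind, and for 5 other short motifs. The D-box stood in all 3 Ces1 members read and in none of the 3 Ces2 members, and over the whole family in 5 of 6 Ces1 genes and 0 of 6 Ces2 genes with an entry. It stands in 0.938% of 32851 promoter windows. The Ces1 genes are tandem copies, so their windows are not independent of one another. Of those that hold it, Ces1a, Ces1b and Ces1c had Ctrl means of 0.00263, 0.0245 and 0.0481 FPKM, and Ces1e and Ces1g 40.1 and 5.87 FPKM. Shown here are the 100 bases of each Ces1 member that hold it, 5′ to 3′ on the minus strand with the D-box in capitals, since each Ces1 member with an entry holds it. The Ces1h window lacks it, and Ces1d and Ces1f had no entry. The Ces1c window is chr8:93131284-93131383, that of Ces1e is chr8:93229620-93229719 and that of Ces1g is chr8:93337360-93337459.
Ces1c: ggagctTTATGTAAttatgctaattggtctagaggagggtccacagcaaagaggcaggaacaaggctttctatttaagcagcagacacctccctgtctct
Ces1e: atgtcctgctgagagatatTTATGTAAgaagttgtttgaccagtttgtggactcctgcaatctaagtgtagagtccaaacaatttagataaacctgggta
Ces1g: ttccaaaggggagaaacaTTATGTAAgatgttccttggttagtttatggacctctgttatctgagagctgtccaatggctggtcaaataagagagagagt

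The D-box begins 94 bases before the start site in Ces1c and 81 bases before it in Ces1e. In Ces1g it begins 232 bases before the RefSeq start and 133 bases before the start in the deposited table, which lies 99 bases upstream. Laid on each other at the D-box without gaps, the windows of Ces1e and Ces1g had 42 of 91 other bases in common (46.2%), against 18 of 79 (22.8%) for Ces1c and Ces1e and 21 of 80 (26.3%) for Ces1c and Ces1g. The other motifs searched were CAAAGTCCA (0.475% of all windows), GTTAATNAT (0.801%), AGGTCA (16.3%), TGTTCT (19.0%) and TATAAA (13.6%). Of these, TGTTCT or its reverse complement stood in Ces2c and Ces2g, and TATAAA or its reverse complement in Ces1g. For FLX versus PBS the log2 fold change was -3.12 for Dbp, -1.05 for the barely detected Ces1c, 0.28 for Ces1e and 1.58 for Ces1g. For PBS versus Ctrl the values of these genes were -0.76, 1.497, -0.53 and -2.88 in this order. For FLX versus Ctrl they were -3.88, 0.44, -0.26 and -1.30. A match is only a run of letters, and whether any factor binds there in these kidneys was not tested. The part of Dbp in the levels of these genes was not tested either.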

How the data were processed

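Right kidneys of 18 mice in 3 groups of 6 were sequenced. The table deposited by the authors gives, per gene and mouse, the FPKM and an estimated count that is a whole number. The study's methods name fastp, HISAT-3N, StringTie and GRCm38; the submitters' processing notes name cutadapt 1.9, HISAT2 2.0.4, UMI-tools and StringTie 1.3.4d. No source used here names the counting tool. The members and gene lists were chosen with earlier results of these data known.

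Estimated counts of 6 Ctrl, 5 PBS and 6 FLX mice were compared in 1 fit with edgeR 4.0.16 (R 4.3.3; filterByExpr, TMM scaling, two-sided quasi-likelihood test, Benjamini-Hochberg adjustment over 20251 genes, calls at an adjusted p under 0.05); the steps were tested on simulated data with 200 changed genes. Each sample is a separate mouse, no libraries were identical, and totals per mouse are in the report. Levels are FPKM, with a pseudocount of 0.1 on the log2 scale. All members were named; of the lists, called genes and carboxylesterases with a mean of at least 1 FPKM were named, with the 3 genes most like Ces1f and Ces2c. Alternatives were all 6 PBS mice, upper-quartile scaling, DESeq2 1.42.0, no filter, limma 3.58.1 on log2(FPKM + 0.1) and log2(FPKM + 1), a replicate block and leaving out each mouse. Promoter sequences came from RefSeq (GRCm38.p6), and 6 of 9 members matched. Neither behaviour nor staining was analysed here. Intervals on depth cover counting error only.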

Additional observations from a re-analysis of the deposited data

Results flagged for a closer look

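In 44 groups of 5 or 6 mice, the gap between the extreme mouse and its nearest neighbour, as a share of the group's range, was compared with Dixon's critical value, which chance passes in about 1 of 20 groups. The PBS group was read both with and without PBS replicate 6, so the 44 groups are not independent of one another. The value was passed in 8 groups. PBS replicate 6 was low in 3 of them, with a share of 0.9008 for Ces1f (32.5 FPKM), 0.6675 for Ces2e (4.26 FPKM) and 0.6999 for Ces2h (0.363 FPKM). Among mice of the main comparisons, Ces1d was low in Ctrl replicate 3 (0.7952, 92.1 FPKM), Ces1f was low in Ctrl replicate 6 (0.6887, 169.5 FPKM) and Ces2b was high in PBS replicate 4 (0.7638 among 5 PBS mice, 4.78 FPKM). Outside the members, Ces2d-ps was low in PBS replicate 3 (0.6376, 16.5 FPKM) and Ces2h in FLX replicate 5 (0.6734, 0.874 FPKM).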

How the results depend on the processing

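Since the members were chosen on these values, their calls under other settings describe the fits and support nothing. For PBS versus Ctrl Ces1e, Ces1f and Ces1g were each called lower in 24 of 24 alternatives, and for FLX versus Ctrl Ces1f was called in 5 and Ces1g in 12 of 24. Over 24 alternatives the log2 fold change for PBS versus Ctrl ran from -0.61 to -0.49 for Ces1e, from -0.99 to -0.74 for Ces1f and from -3.09 to -1.89 for Ces1g. Ces1d and Ces2b for FLX versus PBS, both near 0, changed sign in 5 alternatives each. Ces1c for PBS versus Ctrl, at 1.497, was 0.63 on log2(FPKM + 0.1) and 0.12 on log2(FPKM + 1). The cause of the shifts below was not tested.

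Genes called for PBS versus Ctrl were 772, but 1424 with DESeq2; for FLX versus PBS they were 147, but 498 with DESeq2, 88 with no filter on low counts and 255 and 242 with limma on log2(FPKM + 0.1) and on log2(FPKM + 1); for FLX versus Ctrl they were 744, but 354 with all 6 PBS mice, 1645 with DESeq2, 378 with no filter and 1214 and 1197 with limma. Member carboxylesterases called for FLX versus PBS were 1 with DESeq2, 2 and 1 with limma; for FLX versus Ctrl they were 0 with all 6 PBS mice, 0 with no filter and 1 and 1 with limma. Other carboxylesterase genes called for PBS versus Ctrl were 1 with all 6 PBS mice, with upper-quartile scaling and with DESeq2 (Ces2h each time). Other ester-hydrolysing enzyme genes called for PBS versus Ctrl were 3 with all 6 PBS mice and 2 with upper-quartile scaling, DESeq2 and limma on either scale; for FLX versus PBS they were 1 with limma, and for FLX versus Ctrl 1 with upper-quartile scaling, 2 with DESeq2 and 1 with limma. Regulator genes called for PBS versus Ctrl were 1 with all 6 PBS mice, 1 with upper-quartile scaling and 2 with DESeq2; for FLX versus PBS they were 2 with DESeq2, and for FLX versus Ctrl 2 with DESeq2 and with limma.

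Leaving out 1 mouse at a time gave 388 to 1662 genes called for PBS versus Ctrl, 47 to 250 for FLX versus PBS and 271 to 3099 for FLX versus Ctrl; the highest count came each time without Ctrl replicate 3. Members called were 3 to 4 for PBS versus Ctrl, 0 to 1 for FLX versus PBS and 0 to 2 for FLX versus Ctrl, where the count was 0 without Ctrl replicate 1, 2, 4 or 5 or FLX replicate 2, 4, 5 or 6, and 1 without FLX replicate 1 or 3 or any 1 of the 5 PBS mice. Other carboxylesterase genes called for PBS versus Ctrl were 0 to 1. Other ester-hydrolysing enzyme genes called were 0 to 3 for PBS versus Ctrl and 0 to 2 for FLX versus Ctrl, and regulator genes 0 to 1 for PBS versus Ctrl and 1 to 2 for the others.

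The deviations of mice with the same number had r from -0.225 to 0.286 over 16 pairs (median -0.027). Pairs with different numbers had r from -0.269 to 0.207 over 80 pairs (median 0.0038). No pairing was used in the main fit, and this check cannot exclude a factor shared by mice of the same number. With the replicate block, 419 genes were called for PBS versus Ctrl, 67 for FLX versus PBS and 258 for FLX versus Ctrl, members called for FLX versus Ctrl were 0, and ester-hydrolysing enzyme genes called for PBS versus Ctrl were 0.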
